A study of Caenorhabditis elegans with 2 samples.

Results

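Regions at tRNA genes were examined in a ChIP-seq experiment that mapped the transcription factor SKN-1 in whole L1 larvae, the stage that hatches, of the nematode Caenorhabditis elegans. A region counted when the summit of a region in the pooled list of both replicates lay within 200 bp of a tRNA gene in the Ensembl annotation, and 364 of 27729 pooled regions (1.31%) did so. The worms were of strain OP178, which carries unc-119(ed3) III and wgIs178, an insertion that supplies SKN-1 fused to eGFP, in a population of mixed sex and unstated age. The labels give the antibody as skn-1, while the sample descriptions name eGFP-skn-1, the tagged protein, as the target. They describe 2 biological replicates of 1 group, with fragments sized 150-350. No other condition and no worms without the tag belong to the series, so whether a region was specific to SKN-1 was not tested. Peaks come from whole animals, and the cells in which a site was occupied cannot be told apart. The pooled list holds background regions as well as peaks, and the authors' optimal list, which passed their reproducibility threshold, holds 3484 of them. Every optimal peak was among the 3484 strongest pooled regions by the authors' signal value, so here optimal also means strong. The signal is used only to rank regions within 1 list. Positions are in the ce11 assembly and are counted from 1.

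SKN-1, related to the Nrf factors of mammals, switches on detoxification and proteasome genes under oxidative stress. tRNA genes are transcribed by RNA polymerase III from promoters that lie inside the gene. The A box and the B box in the gene body are bound by the factor TFIIIC, which places TFIIIB just upstream of the start, and a run of T after the gene ends transcription. Each tRNA carries 1 amino acid to the ribosome, and most tRNA genes of the worm exist as families of identical copies.

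The annotation held 634 tRNA genes, of which 612 were nuclear and 22 mitochondrial, and no region lay on the mitochondrial genome. Sequences are shown for 6 of the nuclear genes to make visible where summits fell relative to the internal promoter. They belong to strong optimal peaks, 4 outside promoters of protein-coding genes and 2 inside such promoters. They are not the strongest of all, since stronger peaks were passed over where the tRNA gene, or an identical copy of it, lies on a chromosome whose sequence is not printed here. C43G2.t1 and C04E7.t1 were chosen after their values were seen. Each runs 5′ to 3′ on the strand of the tRNA gene, from 60 bases before the gene to 20 after it, and was read from the RefSeq copy of the assembly. The tRNA gene begins at base 61, and capitals mark matches to the A box (TGGCNNAG, TAGCNNAG, TGGTNNAG or TAGTNNAG) and to the B box (GTTCGANNC).
Y59E1B.t2, tRNA-Pro, chrX:1880797-1880948, minus strand: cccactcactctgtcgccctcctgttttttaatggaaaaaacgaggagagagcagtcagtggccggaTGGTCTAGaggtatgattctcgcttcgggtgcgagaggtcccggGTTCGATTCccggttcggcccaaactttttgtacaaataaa
W09D6.t2, tRNA-Pro, chrIII:11066828-11066979, minus strand: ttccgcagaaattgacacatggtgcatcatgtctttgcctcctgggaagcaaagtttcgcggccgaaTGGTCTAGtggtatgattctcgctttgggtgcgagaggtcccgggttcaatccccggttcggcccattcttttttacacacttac
R11.t1, tRNA-Tyr, chrX:16209749-16209912, minus strand: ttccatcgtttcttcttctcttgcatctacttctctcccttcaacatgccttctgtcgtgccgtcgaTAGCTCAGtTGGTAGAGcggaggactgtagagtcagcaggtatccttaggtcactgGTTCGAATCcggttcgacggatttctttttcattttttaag
R04D3.t2, tRNA-Val, chrX:13306974-13307126, plus strand: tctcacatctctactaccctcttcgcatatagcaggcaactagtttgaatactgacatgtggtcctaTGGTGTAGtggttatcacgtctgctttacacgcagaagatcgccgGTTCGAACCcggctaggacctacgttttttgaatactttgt
C43G2.t1, tRNA-Leu, chrIV:6556758-6556921, plus strand: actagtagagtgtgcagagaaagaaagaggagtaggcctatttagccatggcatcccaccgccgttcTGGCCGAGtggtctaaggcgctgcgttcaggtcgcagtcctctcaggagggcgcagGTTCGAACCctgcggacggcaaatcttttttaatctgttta
C04E7.t1, tRNA-Leu, chrX:353235-353396, minus strand: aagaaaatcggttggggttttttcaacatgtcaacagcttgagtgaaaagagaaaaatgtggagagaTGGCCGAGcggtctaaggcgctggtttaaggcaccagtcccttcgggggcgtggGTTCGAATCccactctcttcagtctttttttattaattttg
The summit fell on base 91 of the Y59E1B.t2 sequence, inside the gene between the boxes. In W09D6.t2 it fell on base 43 and in R11.t1 on base 6, both upstream of the gene. In R04D3.t2 it fell on base 64, at the gene's first bases, in C43G2.t1 on base 86, inside the gene, and in C04E7.t1 on base 37, upstream. All 6 hold an A box match and 5 hold a B box match, the exception being W09D6.t2.

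Strong regions were common among those at tRNA genes. In all, 151 of the 364 (41.5%, Wilson 95% interval 36.5 to 46.6) were in the optimal list, against 12.6% of all pooled regions. Their median rank by signal was 4261, against 13865 over the whole pooled list. Of the 300 strongest pooled regions 3 were at tRNA genes and of the 1000 strongest 24 were. The share at tRNA genes was 4.33% of all optimal peaks and 1.31% of all pooled regions. Regions at tRNA genes were thus not more common among the 300 strongest than in the whole pooled list. The 151 optimal regions at tRNA genes had a median signal of 48.3, and all optimal peaks had one of 58.1. Intervals here and below cover only the counting of regions or genes, which are not independent of one another, and the read depth is unknown. With 1 group there was no comparison of samples to test, so counts are set beside the same count over all regions or genes.

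The optimal peaks at tRNA genes lay mostly away from promoters of protein-coding genes, taken as 1000 bp upstream to 200 bp downstream of a coding transcript's start. Of the 364 regions 87 (23.9%) had their summit in such a window. Among those 87, 35 (40.2%, 30.6 to 50.7) were optimal, and of the 277 outside windows 116 (41.9%, 36.2 to 47.8) were. Other pooled regions differed by location, with 22.4% optimal inside windows and 6.19% outside. Thus 116 of the 151 optimal peaks at tRNA genes (76.8%, 69.5 to 82.8) lay outside promoters, against 34% of all optimal peaks. The share was similar for all regions at tRNA genes, 277 of 364. Read the other way, 116 of the 1185 optimal peaks outside promoters (9.79%) were at a tRNA gene, and sequence within 200 bp of tRNA genes made up 0.282% of the bases outside promoters. By gene context, 78 of the 151 were intergenic, 69 lay in an intron of a coding gene and 4 in an exon. The nearest coding start was at a median of 1416 bp, against 339 bp for all optimal peaks. Across all 612 nuclear tRNA genes, with or without a peak, the median was 1500 bp, with 46.4% in an intron and 52.5% intergenic. The placement of these peaks was thus close to that of tRNA genes in general.

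Both replicates held these regions on their own. Replicate 1's list of 30000 regions had 350 at tRNA genes and replicate 2's had 353. Among its strongest 3484 regions replicate 1 had 160 of the 350 (45.7%, 40.6 to 51) and replicate 2 had 122 of the 353 (34.6%, 29.8 to 39.7), where 11.6% of each full list is that strong. Of the 364 pooled regions, 278 (76.4%) had a region of replicate 1 with its summit within 100 bp, 305 (83.8%) had one of replicate 2, and 239 (65.7%) had both. The same shares over all pooled regions were 49.2%, 62.9% and 28.9%. Among optimal peaks the share with both was 92.7% at tRNA genes and 92.7% over the whole list.

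The replicates ranked the tRNA genes differently. Of the 140 optimal peaks at tRNA genes with a counterpart in both, 98 (70%, 62 to 77) ranked better in replicate 1, against 46.8% of all optimal peaks. Their median rank was 1838 in replicate 1 and 2679 in replicate 2, while all optimal peaks had median ranks of 1692 and 1714. The Spearman rho of the 2 signals was 0.399 across these 140 peaks and 0.538 across all optimal peaks, a description over regions that share libraries and are not replicates. Pooled signals of optimal peaks ran from 33 to 180 at tRNA genes and from 33 to 1810 over the whole list. The narrower range at tRNA genes was not allowed for. What sets the replicates apart at tRNA genes was not tested.

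**Figure D1:**
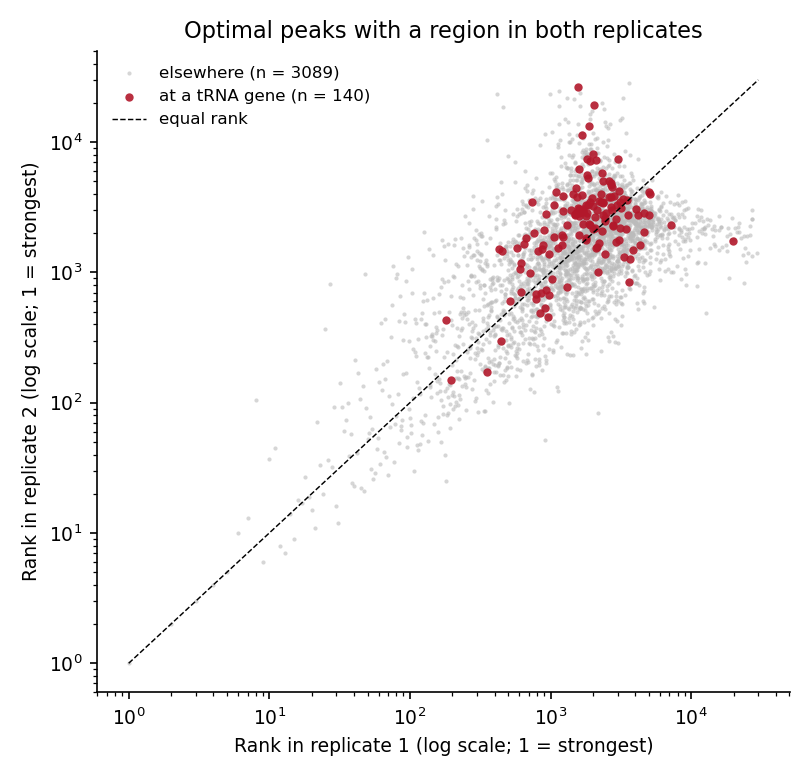
Rank of each optimal peak in replicate 1 (horizontal, log scale) and replicate 2 (vertical, log scale), for peaks with a region of both replicates within 100 bp, with red points at tRNA genes and grey points elsewhere. Of the 140 red points, 98 lie above the dashed line of equal rank, that is, ranked better in replicate 1.

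Summits were concentrated over the tRNA gene and the 50 bp before it. Of the 151 optimal summits, 80 (53%) fell inside the tRNA gene, 64 (42.4%) upstream and 7 (4.64%) downstream, and 53 of those upstream were within 50 bp of the start. The median summit lay 14 bp past the first base of the gene, with quartiles at 19.5 bp before it and 34.5 bp past it. Over all 612 nuclear genes there were 175 optimal summits per 100 kb inside the gene, 173 in the 50 bp upstream and 26.1 in the 50 bp downstream. The genome-wide mean was 3.47 per 100 kb, so these densities were 50.2, 49.8 and 7.52 times the mean. Between 201 and 1000 bp from the genes the density was 5.62 per 100 kb. The 213 regions that were not optimal were more spread, with 51 (23.9%) downstream of the gene.

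The A box match began at a median of base 8 of the gene and the B box match at base 53. Where the gene had a match, 56 of 129 optimal summits (43.4%) lay within 20 bp of the A box and 32 of 113 (28.3%) within 20 bp of the B box. Positions repeat less well at short distances. Of all regions at tRNA genes, 65.7% had a counterpart in both replicates within 100 bp and 46.2% within 50 bp. Whether summits favour either box was not tested. The replicates' own strongest summits were split differently, with intervals that overlap slightly. In replicate 1, 88 of 160 (55%, 47.3 to 62.5) fell inside the gene and 60 upstream. In replicate 2, 49 of 122 (40.2%, 31.9 to 49) fell inside and 63 upstream.

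**Figure D2:**
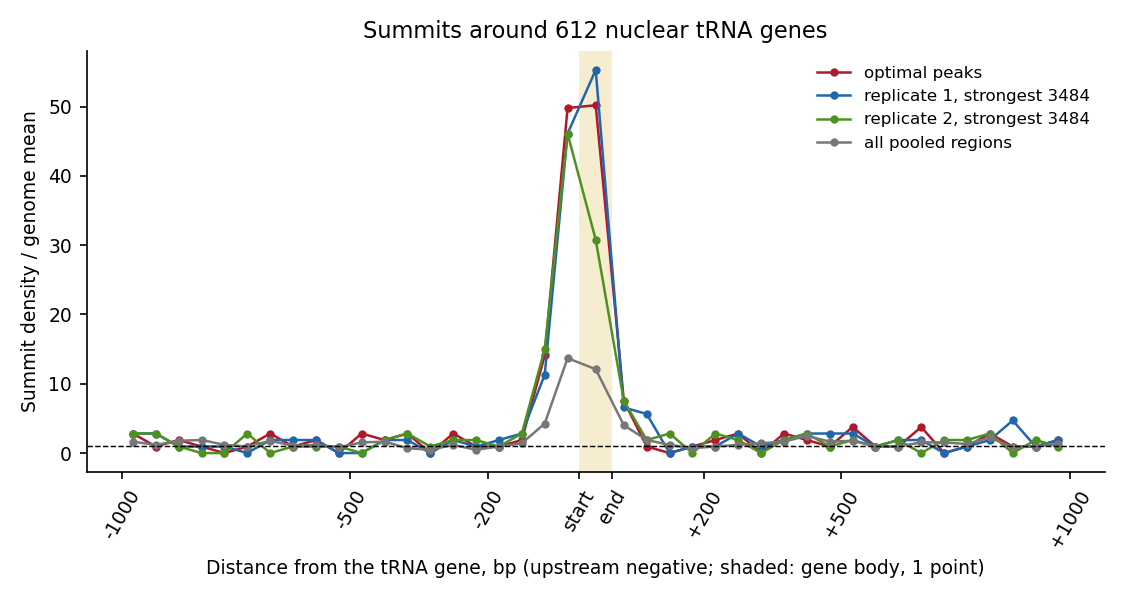
Density of summits around the 612 nuclear tRNA genes in the direction of transcription, as a multiple of each list's mean over the genome (dashed line at 1), in 50 bp bins with the gene body as 1 point. Optimal peaks reach 50.2 times the mean inside the gene and 49.8 times in the 50 bp upstream. The full pooled list shows a lower rise in the same place.

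The strongest peaks at tRNA genes were largely on the X chromosome, which holds 276 of the 612 nuclear tRNA genes and 76 of the 151 optimal peaks at them. Of the 15 strongest, 12 were on X, 12 lay outside promoter windows, 10 were intergenic and 5 intronic, and each had a counterpart in both replicates. Their signals ran from 37.6 to 83 in replicate 1 and from 37.8 to 106 in replicate 2. Of the 15, 8 lie between 0.5 and 3 Mb of X, a segment in which regions of all kinds were dense. Without that segment 142 of 352 regions at tRNA genes (40.3%) were optimal, against 12.5% of all pooled regions outside it.

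The strongest was at F52H2.t1, a tRNA-Asp gene in an intron of aat-3, an amino acid transporter gene, at chrX:2553379-2553674. Its signal was 180 in the pooled list (rank 159), 80.3 in replicate 1 and 106 in replicate 2, with ranks of 195 and 149. The next, at the neighbouring tRNA-Asn gene F52H2.t2, had a pooled signal of 166 with 62.5 in replicate 1 and 101 in replicate 2. The summit of F52H2.t1 lay 38 bp upstream of the tRNA gene and that of F52H2.t2 inside it, and both fell in promoter windows, of aat-3 and of smvt-1.

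Outside promoters the strongest was at Y59E1B.t2, a tRNA-Pro gene at chrX:1880710-1881005 with a pooled signal of 146, 83 in replicate 1 and 69.6 in replicate 2. Its nearest coding start was 11329 bp away. T03G6.t1 (tRNA-Gly, X) followed at 139, with 56.8 in replicate 1 and 81.9 in replicate 2. The strongest on an autosome was at B0350.t1 (tRNA-Lys, IV), with a pooled signal of 110, 37.7 in replicate 1 and 67.8 in replicate 2 and its summit 4 bp before the gene. F47G6.t1 (tRNA-Arg, I), in an intron of spe-15, had a pooled signal of 109, with 53.1 and 59.8 in the replicates. The other 9 of the 15 had pooled signals from 92.2 to 102, at F56C3.t1 (tRNA-Gly), C28G1.t1 (tRNA-Glu), M02F4.t1 (tRNA-Gly), W09D6.t2 (tRNA-Pro), T14F9.t1 (tRNA-Asp), T26C11.t1 (tRNA-Glu), R11.t1 (tRNA-Tyr), R04D3.t2 (tRNA-Val) and R11B5.t1 (tRNA-Thr). Of these, C28G1.t1 had its summit 112 bp upstream, in the promoter windows of C28G1.2 and sec-15 and 15 bp from a coding start. R11B5.t1 differed most between replicates, ranking 432 in replicate 1 and 1520 in replicate 2.

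The limit between optimal and other regions fell within a continuous range of signals. The lowest optimal signal was 33, and the strongest region at a tRNA gene that was not optimal, at ZK507.t1 (tRNA-Asn, III), had 32 (rank 3585), with 15.3 in replicate 1 and no counterpart in replicate 2. It was followed by F14B4.t1 (tRNA-Arg) at 31.8, Y51H4A.t4 (tRNA-Gly) at 31.8, Y73B6BL.t1 (tRNA-Val) at 31.7 and ZC455.t1 (tRNA-Ser) at 31.7. At the 200 bp limit, the farthest summit inside was 191 bp from K02D3.t1 (rank 24220) and the nearest outside was 205 bp from F08G5.t2 (rank 12471). No tRNA gene had 3 regions within reach, and 12 had 2.

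Counted by gene, 380 of 612 nuclear tRNA genes (62.1%) had a pooled region within 200 bp and 161 (26.3%, 23 to 29.9) had an optimal peak. On X the share with an optimal peak was 81 of 276 (29.3%, 24.3 to 35) and on the autosomes 80 of 336 (23.8%, 19.6 to 28.6). Single autosomes ran from 16.7% on V to 31.2% on III, with intervals that overlapped. Genes in an intron of a coding gene (26.1%) and elsewhere (26.5%) had shares within each other's intervals, as did genes within 1000 bp of a coding start (26.7%) and farther away (26.1%). Genes with an A box match had an optimal peak in 28.5% (24.7 to 32.7) and those without in 17.6% (11.9 to 25.2), intervals that overlap slightly. With and without a B box match the shares were 26.5% and 25.7%. A missing match means only that the letters searched were absent, not that the gene lacks the box. The 50 bp upstream of the gene had a median GC content of 46% where there was an optimal peak, 44% where there was only a weaker region and 38% where there was none.

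All amino acids had tRNA genes with an optimal peak. Among the 20 standard amino acids the share ran from 38.5% for leucine (15 of 39, 24.9 to 54.1) through isoleucine (34.5%), glutamate (34.1%), alanine (32.4%) and proline (31%) to serine (17.9%), histidine (15%) and phenylalanine (2 of 14, 14.3%, 4.01 to 39.9). The intervals of these 20 shares overlapped throughout, so no order among amino acids can be read from the optimal peaks. Pooled regions of any strength were at 25 of 31 valine genes (80.6%, 63.7 to 90.8) and 19 of 42 proline genes (45.2%, 31.2 to 60.1). These intervals did not overlap, but the pair was picked as the highest and lowest of the 20, and the difference was not tested. Of the 42 proline genes 24 are identical copies of each other, with regions at 8 of them, so they are not independent counts. K11H12.t1, the 1 gene RefSeq assigns to selenocysteine, named after its values were seen, had an optimal peak of rank 2246 with its summit 23 bp upstream. That summit also lay in the promoter window of K11H12.8, 183 bp from a coding start. None of the 5 genes without an assigned amino acid had an optimal peak, with an interval of up to 43.4%.

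**Figure D3:**
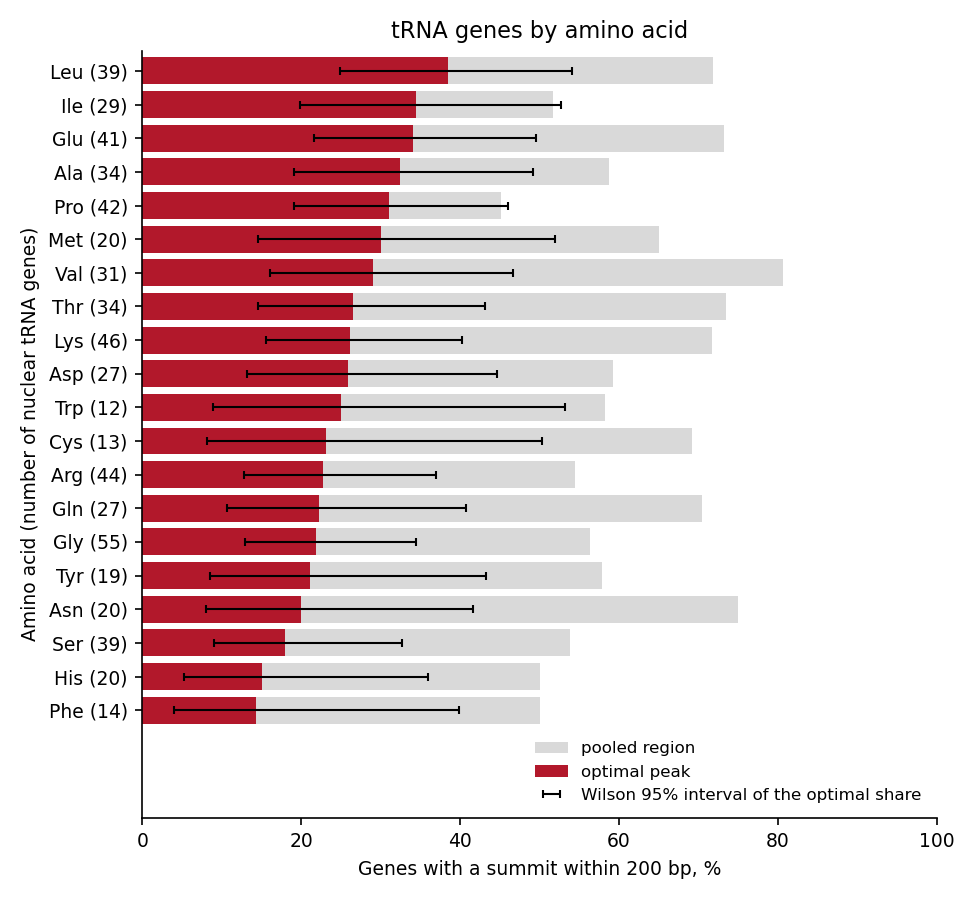
Share of nuclear tRNA genes with a summit within 200 bp, by amino acid, with the number of genes in parentheses. Red bars are optimal peaks with Wilson 95% intervals, grey bars any pooled region. Among the 20 standard amino acids, the ones plotted, leucine is highest at 38.5% and phenylalanine lowest at 14.3% for optimal peaks, with overlapping intervals.

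Identical copies were often in different states. The 612 genes had 200 distinct sequences, and 469 had at least 1 identical copy. Of these 469, 136 (29%, 25.1 to 33.3) had an optimal peak, against 25 of 143 genes with no copy (17.5%, 12.1 to 24.5). Of the 32 families of at least 5 copies, which hold 402 genes, 29 included both a copy with an optimal peak and a copy with no region, and no family had an optimal peak at every copy. A family of 29 tRNA-Gly genes had regions at 20 and optimal peaks at 4, and a family of 24 tRNA-Pro genes had regions at 8, all optimal. Only a family of 7 tRNA-Ser genes had no optimal copy. Over all 612 genes 26.3% had an optimal peak and 232 had no region, so mixed families are common at these shares. Whether families differ from sets of unrelated tRNA genes was not tested.

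Reads from identical copies can be hard to assign, and how the authors treated them is not given in the sources used here. The median tRNA gene had 0% of its 36-base stretches unique in the genome, so a stretch of that length inside the gene does not identify the copy. The read length is not known here. Within 200 bp of tRNA genes the median share of unique stretches was 88.6%, close to the 90% cut used next. In 158 genes at least 90% of the stretches within 200 bp were unique, and 33 of these (20.9%, 15.3 to 27.9) had an optimal peak, against 28.2% (24.3 to 32.5) of the other 454.

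tRNA pseudogenes, which resemble tRNA genes but are annotated as not functional, had few peaks. Of 209 that RefSeq types as such, 27 (12.9%) had a pooled region within 200 bp and 2 (0.957%, 0.263 to 3.42) an optimal peak. At least 90% of the sequence within 200 bp was unique for 147 of the 209. An A box match was in 85.6% of pseudogenes and 79.6% of tRNA genes, and a B box match in 68.9% and 72.1%. The upstream 50 bp had a median GC content of 38%, equal to that of tRNA genes with no region. The 2 with an optimal peak, named after their values were seen, were D1046.t1 and T08B2.t1, with summits inside the promoter windows of cfim-2 and mrpl-23.

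Other small RNA genes were counted by the same rule. Optimal peaks were within 200 bp of 81 of 346 snoRNA genes (23.4%, 19.3 to 28.1), 13 of 129 snRNA genes (10.1%, 5.98 to 16.5), 12 of 261 miRNA genes (4.6%, 2.65 to 7.86) and 0 of 20 annotated rRNA genes (up to 16.1%), of which 2 lie in unique sequence. The tRNA and snoRNA intervals overlapped, and both lay above those of snRNA and miRNA genes. The types differ in unique sequence, which surrounded 37 of 129 snRNA and 158 of 612 tRNA genes. It surrounded 309 of 346 snoRNA and 234 of 261 miRNA genes, and its part in these shares was not tested. Counted by region, the share in the optimal list was not higher at tRNA genes (41.5%, 36.5 to 46.6) than at snoRNA genes (80 of 159, 50.3%, 42.6 to 58) or snRNA genes (13 of 31, 41.9%, 26.4 to 59.2), and at miRNA genes it was 12 of 64 (18.8%, 11.1 to 30).

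**Figure D4:**
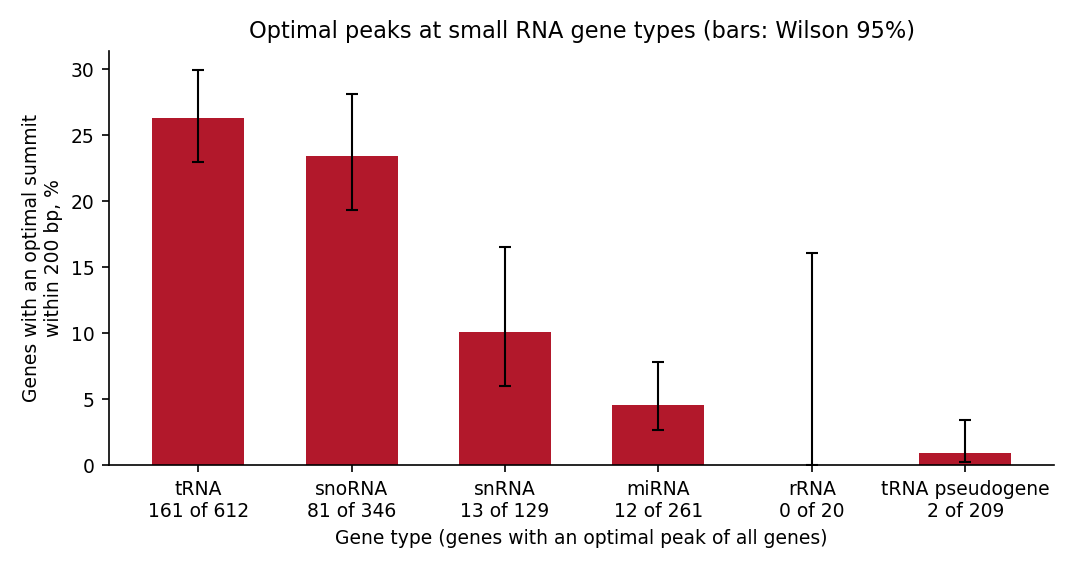
Share of genes of each type with an optimal summit within 200 bp, with Wilson 95% intervals. tRNA genes (26.3%) and snoRNA genes (23.4%) are highest, and tRNA pseudogenes are at 0.957%.

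The binding sequence of SKN-1 was less frequent at tRNA genes than at other peaks. The core, ATCAT or GTCAT on either strand, was within 75 bp of the summit in 38 of 151 optimal peaks at tRNA genes (25.2%, 18.9 to 32.6), against 43.3% (41.7 to 45) of other optimal peaks and 44.7% of all pooled regions. Among other optimal peaks outside promoters it was in 52.2%. Base composition moved with this, since the median GC content of the windows was 48.3% at tRNA genes, 43% at other optimal peaks and 35.8% over all pooled regions, and its part in the difference was not tested. With the bases of tRNA genes set aside, 27 of the 151 (17.9%) still had a core, and 11.1% of all tRNA genes hold the letters within the gene. Less sequence was searched for the 17.9%, so it cannot be compared with the shares of other peaks. Peaks with and without the core had similar median ranks, 2226 and 2270.

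Other motifs were counted in the same windows. The GAGA-type motif, searched for by the letters GAGAG on either strand, was in 53.6% of optimal peaks at tRNA genes, 52.5% of other optimal peaks and 27.6% of all pooled regions. TGANTCA, an AP-1-like site, was in 2 of 151 optimal peaks at tRNA genes (1.32%, 0.364 to 4.7). It was in 4.38% (3.74 to 5.13) of other optimal peaks and 4.48% of pooled regions, so it was lower at tRNA genes, like the core, but with overlapping intervals. The B box, GTTCGANNC, was in 49% of the optimal peaks at tRNA genes and 1.32% of other optimal peaks, which follows from the choice of regions. A match is a description of the sequence and not evidence of a site.

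**Figure D5:**
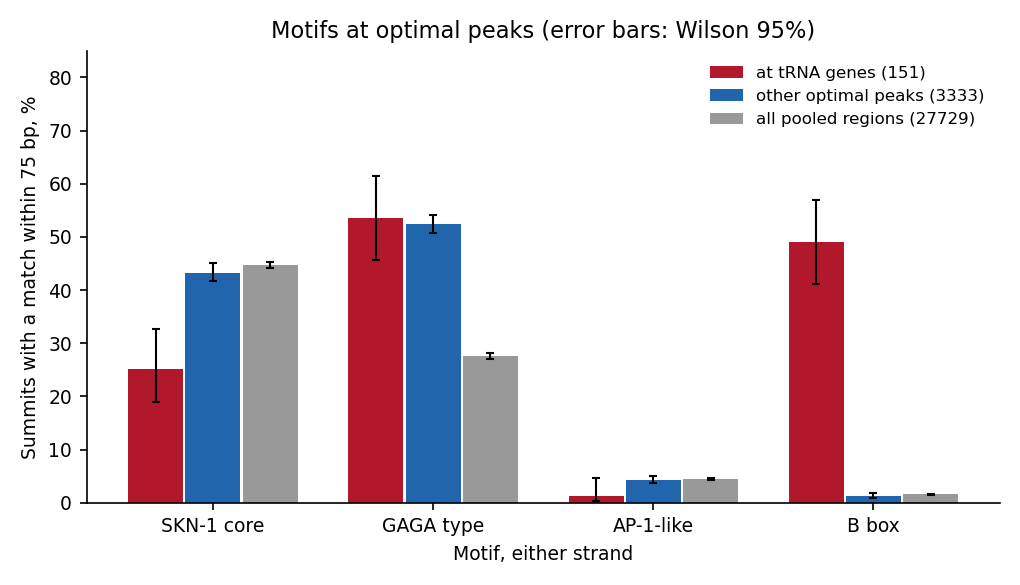
Share of summits with a match to each motif within 75 bp on either strand, for optimal peaks at tRNA genes, other optimal peaks and all pooled regions, with Wilson 95% intervals. The SKN-1 core is at 25.2%, 43.3% and 44.7% in these sets, and the GAGA-type motif at 53.6%, 52.5% and 27.6%.

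Genes that make and process tRNAs were also examined, from a list of 24 protein-coding genes of which 23 matched the annotation. An optimal peak lay in the promoter window of 8 (34.8%, 18.8 to 55.1), against 15% of all 19973 protein-coding genes. For transcription these were rpc-1, the largest subunit of RNA polymerase III (rank 1447), tftc-1, a subunit of TFIIIC (rank 1143), and mafr-1, the worm counterpart of the polymerase III repressor Maf1 (rank 852). For processing, export and modification they were hoe-1, an endonuclease that trims tRNA ends (rank 2028), popl-1, an RNase P and MRP component (rank 960), xpo-3, the tRNA exportin (rank 3400), elpc-1, an Elongator subunit (rank 2768), and pus-1, a pseudouridine synthase (rank 914). The popl-1 peak was at the edge of the window, 996 bp upstream of the start, and the other 7 were 98 to 390 bp upstream. The 6 genes with a counterpart in both replicates all ranked better in replicate 2, popl-1 by little (1165 and 989). Among all optimal peaks with both counterparts 46.8% ranked better in replicate 1, and 6 genes are too few to read a difference from. hoe-1 and xpo-3 had no counterpart in replicate 1. Of the other 15, rtcb-1, the tRNA ligase, elpc-2, elpc-4, tut-1 and tut-2 had only a weaker pooled region, and 10 had none, among them tbp-1 and brf-1 of TFIIIB.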

How the data were processed

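SKN-1 ChIP-seq was analysed from deposited region lists of 2 biological replicates. Per the deposited readme, the authors made each replicate's list from its alignments and 1 control alignment shared by both, a pooled list from both replicates, and an optimal list thresholded by the irreproducible discovery rate. The signal value of each region is as deposited by the authors, and its normalization is not stated. No source used here gives the aligner, peak caller, threshold or read depth. The ce10 versions were not used here.

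Summits (start plus summit offset) were placed against Ensembl release 115 genes. Promoter windows used starts of transcripts typed protein-coding, a choice made after counts with both definitions were seen (2299 optimal summits inside, or 2303 with every transcript of coding genes). Amino acids, pseudogene types and sequence came from RefSeq for the same assembly. Amino acids were given for 607 of 612 nuclear genes. A region was matched between lists when summits lay within 100 bp. Unique sequence was the share of 36-base stretches found once in the 6 chromosomes. Shares carry Wilson 95% intervals.

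Members and gene lists were chosen with earlier results of these data known. The genes named are the 15 strongest optimal members, the 10 strongest outside promoters, the 5 strongest that are not optimal, those at the distance limit, and the tRNA biogenesis list. Sequences were printed for the strongest optimal members, 4 outside and 2 inside promoters, whose tRNA gene is not on chromosome I and has no identical copy there. This brought in C43G2.t1 and C04E7.t1, which the naming rule does not cover. Distance and window functions were tested on simulated data. Python 3.11.15, numpy 2.4.6, scipy 1.17.1 and matplotlib 3.10.9 were used.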

Additional observations from a re-analysis of the deposited data

How the results depend on the processing

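Of 40 alternatives computed, 29 stayed within 1.5 times the reported count, or within the interval of a share, and 11 moved. Restricting the rule to the 158 tRNA genes in unique sequence left 97 regions, 33 of them optimal, at 95 and 33 genes. Fewer genes were tested, and 20.9% of them had an optimal peak, against 26.3% of all 612. Taking the stronger part of the optimal list, its upper 50%, left 44 optimal regions at 49 genes, with 36 of the regions outside promoters. A shorter list lowers these counts by construction. Optimal peaks at tRNA genes also ranked lower, with a median rank of 2246 against 1742 for all optimal peaks, so more than the list's length was involved. The share with a counterpart in both replicates was 46.2% with summits within 50 bp and 80.5% with any overlap, against 65.7%. Of the 364 regions, 113 had the SKN-1 core within 75 bp, 69 within 50 bp and 193 in the whole region, since the window sets the sequence searched. With either replicate's own list in place of the pooled one, regions numbered 350 to 353, those among the strongest 3484 numbered 122 to 160, tRNA genes with a region 361 to 362 and those with a strong one 131 to 168. Using starts of every transcript of coding genes, an alternative added after seeing the data, left 116 optimal regions outside promoters, as reported. No paired analysis was possible because the series has 1 group and no comparison between groups.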
